A study of Caenorhabditis elegans with 2 samples.

Results

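The genes of 9 Caenorhabditis elegans transcription factors of the CREB, ATF, AP-1 and SKN-1 families were examined for binding by ZIP-8, itself a factor with a basic leucine zipper (bZIP). They are crh-1, crh-2, let-607, atf-7, atf-2, ces-2, fos-1, jun-1 and skn-1, chosen by name as possible partners or competitors of ZIP-8. The choice was made with earlier results of these data known. They are 9 of 19973 protein-coding genes in the annotation. A peak was assigned to a gene when its summit lay between 5000 bp upstream of the gene start and 1000 bp past the gene end. The 9 windows covered 164 kb and none overlapped another.

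The data come from ChIP-seq (sequencing of DNA recovered with a chromatin protein) of an eGFP-tagged ZIP-8 in whole mixed-stage embryos of strain OP327, whose genotype is unc-119(ed3) III; wgIs327. Both biological replicates belong to this 1 group, carry the same integrated zip-8 transgene and the same unc-119 allele, come from pooled male and female animals of unknown age and share 1 strain entry. The labels do not give the promoter that drives the transgene or say whether the replicates were grown apart, and differences between them may be technical. An untagged strain was not analysed here, and the lists hold no expression values against which the embryonic stage could be checked.

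Proteins with a bZIP domain grip DNA as pairs, and the partner in the pair helps to set the sequence that is read. CREB and ATF proteins bind the cAMP response element (CRE), TGACGTCA, while pairs of FOS and JUN, known as AP-1, prefer TGACTCA and its reverse complement TGAGTCA. Proteins of the PAR group read TTACGTAA, those of the C/EBP group read TTGCGCAA, and SKN-1, a relative of vertebrate Nrf factors, binds as a single protein without a leucine zipper and reads ATCAT or GTCAT cores.

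Sequence around 9 summits that held a full bZIP site, 7 of them optimal peaks, shows which site lay where. The ces-2 peak with TTACGTAA is described below by its values and its sequence is not shown. A full bZIP site was any of TGACGTCA, TGACGTAA, TTGCGCAA, TTACGTAA, TGATGCAA or TGACGCAA, on either strand within 50 bp of the summit. The sequences are on the plus strand of ce11, 5′ to 3′, and capitals mark the full site, so that TGACGTAA on the minus strand appears as TTACGTCA. The jun-1 sequence is II:9125708-9125808, the atf-7 sequences are III:4502691-4502791, III:4494344-4494373 and III:4496196-4496296, and the crh-1 sequences are III:11684907-11685007, III:11656241-11656270 and III:11665516-11665616. The fos-1 sequence is V:6000385-6000485 and the skn-1 sequence is IV:5662477-5662577, both from peaks below the authors' threshold and shown because their highest peak held a CRE.
jun-1 intron: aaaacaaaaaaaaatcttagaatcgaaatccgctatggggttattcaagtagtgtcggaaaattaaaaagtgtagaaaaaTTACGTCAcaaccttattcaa
atf-7 upstream, in cct-5: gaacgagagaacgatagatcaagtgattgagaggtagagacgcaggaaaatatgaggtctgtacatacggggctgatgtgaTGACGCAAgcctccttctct
atf-7 exon: ggcgacgctgaTGACGTCAtcatcgtcgtc
atf-7 intron: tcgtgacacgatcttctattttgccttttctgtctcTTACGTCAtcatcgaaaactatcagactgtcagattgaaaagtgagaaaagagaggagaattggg
crh-1 distal intron: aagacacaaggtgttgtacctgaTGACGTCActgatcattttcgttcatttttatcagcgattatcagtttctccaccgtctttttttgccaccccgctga
crh-1 upstream, in faah-6: aataaacaaaaTGACGTAAtatcttttatc
crh-1 proximal intron: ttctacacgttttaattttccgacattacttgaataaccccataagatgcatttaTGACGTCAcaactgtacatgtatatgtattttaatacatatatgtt
fos-1 upstream: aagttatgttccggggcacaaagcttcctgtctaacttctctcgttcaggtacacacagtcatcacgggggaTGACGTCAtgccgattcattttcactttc
skn-1 upstream, in bec-1: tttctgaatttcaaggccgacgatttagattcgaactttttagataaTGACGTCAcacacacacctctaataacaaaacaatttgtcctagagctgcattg
The CRE was in 5 of these 9 sequences, TGACGTAA in either orientation was in 3, and the atf-7 peak inside cct-5 held TGACGCAA, which joins a CRE part to a C/EBP part.

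Strong ZIP-8 peaks lay at 4 of the 9 genes, namely jun-1, ces-2, atf-7 and crh-1. They were taken from the authors' optimal list, which holds 2634 peaks, 2610 of them on the 6 nuclear chromosomes. These are exactly the top 2634, by signal, of a list of 30000 made from both replicates together, so they are not independent of either replicate. Of all protein-coding genes, 19.7% had an optimal summit in the same window. Window lengths differ between genes, and those of the 9 ran from 7.955 kb at atf-2 to 42.2 kb at crh-1. The remaining 5 genes, let-607, fos-1, skn-1, crh-2 and atf-2, had none. The 4 genes held 11 optimal peaks, 4 at ces-2, 3 at crh-1, 3 at atf-7 and 1 at jun-1. Over all 9 windows that was 6.69 per 100 kb, against 2.60 per 100 kb over the nuclear genome. By gene it was 40.5 per 100 kb at ces-2, 22.4 at atf-7, 7.11 at crh-1 and 3.99 at jun-1.

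The signal of a peak is the authors' own enrichment value, on a scale that the labels and file notes do not state, and ranks are within each list. Over the 11 peaks the pooled signal ran from 24.5 to 123 with a median of 44.8, beside a median of 38.4 over all nuclear optimal peaks, and 6 of the 11 lay above that median. All 11 had a start of the member itself as the nearest protein-coding start, though the window rule favours this and no share over all optimal peaks is given. Annotated starts numbered 9 at jun-1, 7 at crh-1, 6 at atf-7 and 1 at ces-2. A crh-1 summit nevertheless lay inside faah-6 and an atf-7 summit inside cct-5. In the unthresholded pooled list every member had a peak, 81 in all, but so did 84.6% of protein-coding genes. Every member likewise had a peak in the list of replicate 1, where 82.6% of genes had one, and in that of replicate 2, where 62.7% did.

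**Figure D1:**
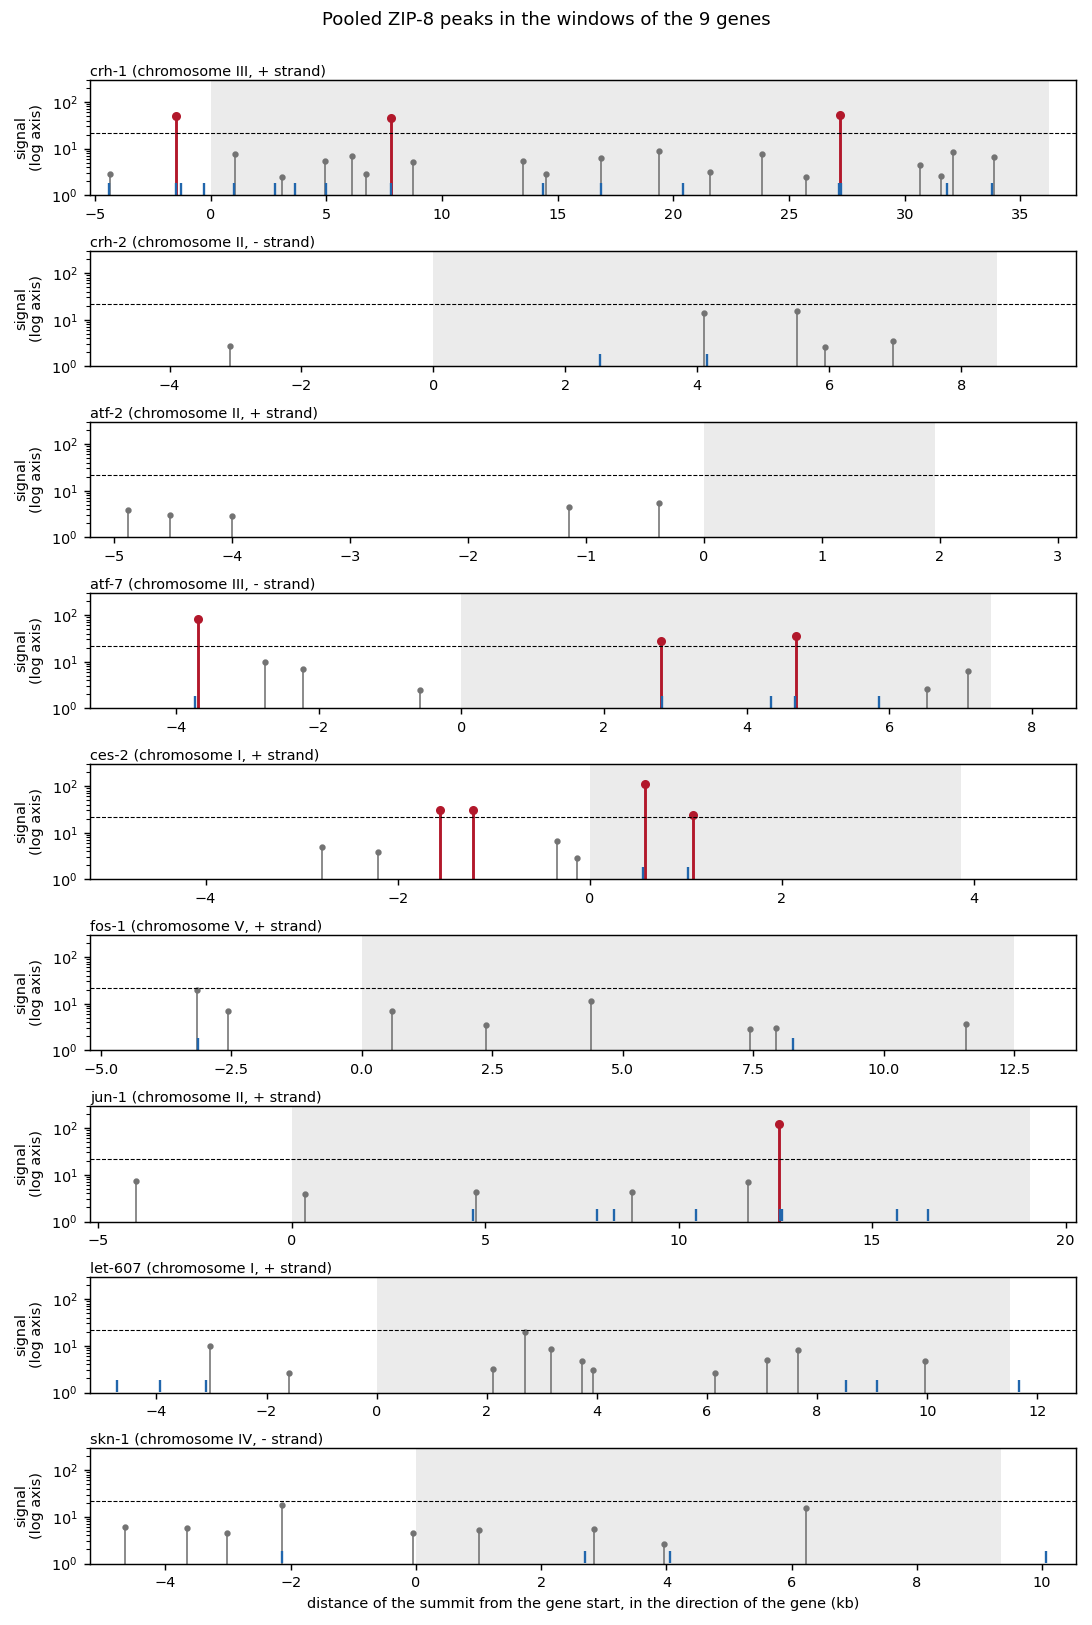
Pooled peaks in the window of each of the 9 genes, with the distance of the summit from the gene start in kb on the horizontal axis and the authors' signal on a log vertical axis. Red stems are optimal peaks, grey stems other pooled peaks, blue ticks full bZIP sites, grey shading the gene, and the dashed line the lowest optimal signal of 21.4; red stems occur at crh-1, atf-7, ces-2 and jun-1.

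The AP-1 genes differed from each other. jun-1, which encodes the JUN subunit, had the highest signal of any peak at the 9 genes, 123.0 in the pooled list (rank 151), 92.4 in replicate 1 (rank 147) and 7.56 in replicate 2 (rank 2223). The summit lay far inside the gene, 12601 bp downstream of its start, in an intron and 1579 bp upstream of an internal start, that of transcript T24H10.7d. It was high in the pooled list and in replicate 1, and in replicate 2 only 2 of the 9 other optimal peaks found there ranked lower. A TGACGTAA lay 34 bp from the summit, in the jun-1 sequence shown above, and a CRE stood further off, at 12683 bp from the gene start.

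fos-1, which encodes the FOS subunit and acts in the invasion of the anchor cell, had no optimal peak. Its highest pooled peak had a signal of 19.4 (rank 2898), with 7.13 in replicate 1 (rank 5201) and 2.09 in replicate 2 (rank 11745), so it was close to the threshold in the pooled list and further down both replicate lists. That summit lay 3166 bp upstream of fos-1, with a CRE 26 bp away. It was outside protein-coding genes and inside the ncRNA gene C10F3.15 (V:6000346-6000492). A weaker pooled peak, chosen after its values were seen, lay 83 bp upstream of an internal fos-1 start with a signal of 11.3 (rank 4862) and held 1 AP-1 site and no full site.

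The AP-1 site itself was not found at the strong peaks. The windows of the 9 genes held 27 AP-1 sites, TGACTCA or its reverse complement TGAGTCA, 9 of them at fos-1 and 9 at jun-1. None lay within 50 bp of the 11 optimal summits. Sites in windows without an optimal peak, such as the 9 at fos-1, could not. That pattern was at 0.728% of all optimal summits and in 0.899% of windows of 101 bp laid over the genome. With a share that low, its absence from 11 summits does not set these genes apart.

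Among the CREB genes, crh-1 carried 3 optimal peaks and crh-2 and let-607 none. crh-1 encodes the worm CREB protein, and its window was the longest, 42.2 kb. The highest peak was 27190 bp inside the gene, in an intron, with a pooled signal of 52.5 (rank 822), 44.3 in replicate 1 (rank 549) and 6.34 in replicate 2 (rank 2895). The crh-1 peak upstream of the gene lay in the 3′ UTR of faah-6, 1507 bp before the crh-1 start, with signals in the same order of 50.1 (rank 883), 25.03 (rank 1357) and 22.2 (rank 427). Another intronic peak, 7799 bp from the start, had signals of 44.8 (rank 1037), 26.2 (rank 1285) and 12.9 (rank 977). The pooled signals of the 3 peaks were close, while in replicate 2 the upstream peak was the highest and the distal intronic peak the lowest. Both intronic peaks held a CRE, at 24 bp and 8 bp from the summit, and the upstream peak held TGACGTAA at 4 bp.

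The crh-1 window held 10 of the 18 CREs at the 9 genes, and only some of them were at peaks. An optimal summit lay within 50 bp of 2 of the 10, where 18.9% of all CREs of the genome had one. A pooled summit of any signal lay within 50 bp of 4, where 40.7% of all CREs had one. The CRE nearest the gene start, 283 bp upstream, had no pooled summit within 50 bp. Another CRE, 1020 bp inside the gene, was at a pooled peak of signal 7.83 (rank 7871), likewise picked with its values in view. A pair of CREs, at 2782 and 3666 bp, lay in a stretch of 24 bases that occurs 175 times in the genome, and neither had a pooled summit.

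let-607 and crh-2 encode relatives of CREB3, membrane-bound CREB proteins of the endoplasmic reticulum. The highest peak at let-607 was intronic, 2694 bp from the start and without a full site, with signals of 19.9 in the pooled list (rank 2843), 15.5 in replicate 1 (rank 2364) and 3.97 in replicate 2 (rank 5533). At crh-2 the highest peak was 976 bp upstream of an internal start and also lacked a full site. Its signals were 15.7 in the pooled list (rank 3515), 2.74 in replicate 1 (rank 17561) and 4.08 in replicate 2 (rank 5380). Another intronic crh-2 peak, chosen after its values were seen, was higher in both replicate lists. Its signals in the same order were 13.6 (rank 4017), 6.91 (rank 5422) and 5.36 (rank 3713). No full site lay within 50 bp of its pooled summit. A CRE lay within 100 bp, at II:5183421-5183428, and the replicate 2 summit was II:5183440. Both genes were below the optimal list, with let-607 the nearer to it: the optimal peak of lowest signal at the 9 genes was at ces-2, with 24.5 (rank 2260), and the nearest peaks outside were those of let-607, fos-1 and skn-1.

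The ATF genes were split as well. atf-7 encodes an ATF2-like factor downstream of p38 MAP kinase in immunity and had 3 optimal peaks, all with a full site. The highest, 3696 bp upstream, lay inside an intron of cct-5, a chaperonin gene on the same strand (III:4499188-4508114). Its pooled signal was 82.2 (rank 322), with 33.4 in replicate 1 (rank 902) and 57.3 in replicate 2 (rank 50), the highest signal in replicate 2 at any of the 9 genes. The atf-7 summit in an exon lay 4688 bp inside the gene and 90 bp downstream of an internal start, that of transcript C07G2.2d.3. Its signals in the same order were 35.2 (rank 1488), 30.7 (rank 1035) and 7.19 (rank 2404), and a CRE lay 2 bp away. An intronic peak, 2799 bp from the gene start, had 28.4 in the pooled list (rank 1906) and 19.3 in replicate 1 (rank 1860) and no peak in replicate 2. The atf-7 exon peak was the only optimal summit in a promoter at the 9 genes, counted from 1000 bp upstream to 200 bp downstream of a transcript start, where 4.35% of protein-coding genes had one.

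atf-2 and ces-2 encode related bZIP proteins of the PAR type, and CES-2 represses ces-1 in the death of the sister cells of the NSM neurons. At ces-2 an intronic peak 573 bp from the start had signals of 113.1 in the pooled list (rank 179), 88.3 in replicate 1 (rank 157) and 14.95 in replicate 2 (rank 795), with a PAR site, TTACGTAA, 14 bp from the summit. The other 3 optimal peaks at ces-2 lacked a full site within 50 bp. A pair lay in intergenic sequence 1213 and 1562 bp upstream, with pooled signals of 30.93 and 30.85 (ranks 1728 and 1733), 7.90 and 17.8 in replicate 1 and 19.4 and 14.4 in replicate 2. The last, 1076 bp inside the gene in an intron, had 24.5 in the pooled list, 8.91 in replicate 1 (rank 4003) and 25.3 in replicate 2 (rank 332), and it was the highest peak of ces-2 in replicate 2. atf-2 came last of the 9 genes in the pooled list and in replicate 1, and in replicate 2 its highest peak ranked above those of let-607 and fos-1. Its highest pooled peak, 383 bp upstream, had a signal of 5.48 (rank 13048) and was in neither replicate list.

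skn-1, which specifies endomesoderm in the early embryo and acts in the response to oxidative stress, had no optimal peak. Its highest peak lay 2143 bp upstream, with a CRE at the summit, and had signals of 18.3 (rank 3065), 10.9 in replicate 1 (rank 3231) and 5.34 in replicate 2 (rank 3735). The nearest start there was not that of skn-1 but of bec-1, an autophagy gene, 220 bp away, so the peak is in the bec-1 promoter and intron. A pooled peak inside skn-1, also chosen after its values were seen, lay 933 bp upstream of an internal skn-1 start and nearer, at 213 bp, to the start of clec-178, in an intron of both genes, and had a signal of 15.3 (rank 3610) and no full site.

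**Figure D2:**
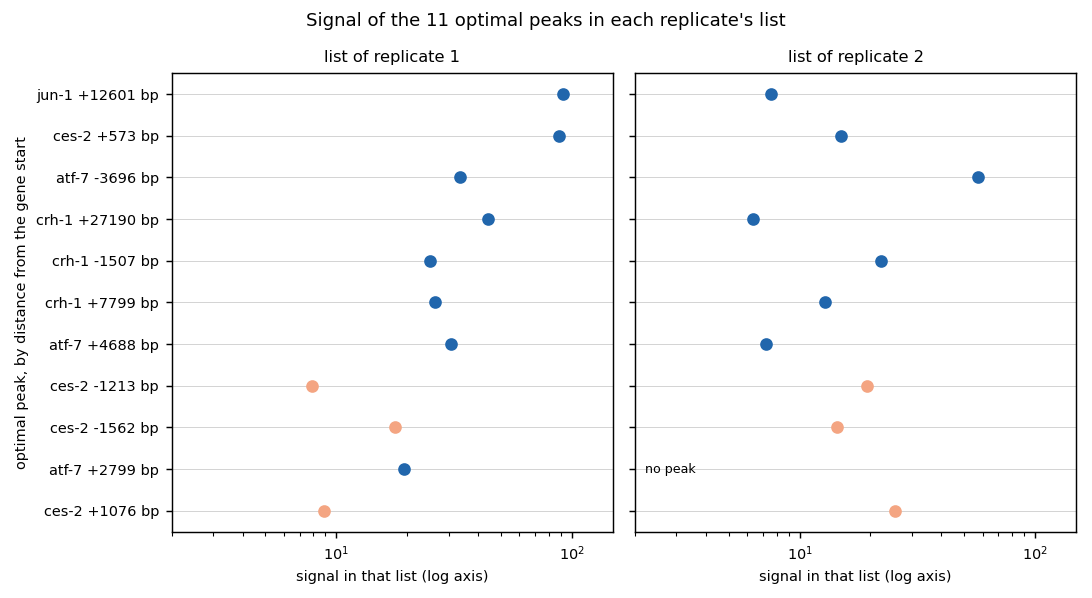
Signal of the 11 optimal peaks in the list of replicate 1 (left) and of replicate 2 (right), on log axes, with peaks in the order of pooled signal. Blue points have a full bZIP site and orange points none; jun-1 is highest in replicate 1 at 92.4 and the atf-7 peak inside cct-5 is highest in replicate 2 at 57.3.

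The replicate lists ordered the strong peaks differently. Of the 11 optimal peaks, 10 were overlapped by a peak in both replicate lists, where 81% of all optimal peaks were, the exception being the atf-7 intronic peak. Of the 70 other pooled peaks in the windows, 8 were in both, where 9.03% of all such peaks were, and 27 were in replicate 1 alone, 4 in replicate 2 alone and 31 in neither. Taking the 2634 peaks of highest signal in each replicate list, 9 of the 11 were overlapped by one in replicate 1, 9 by one in replicate 2 and 7 by one in both. In replicate 1 the genes ran jun-1, ces-2, crh-1, atf-7 and then let-607 by their highest peak, and in replicate 2 atf-7, ces-2, crh-1, jun-1 and then crh-2. The first 4 genes were thus the same in each, in another order.

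**Figure D3:**
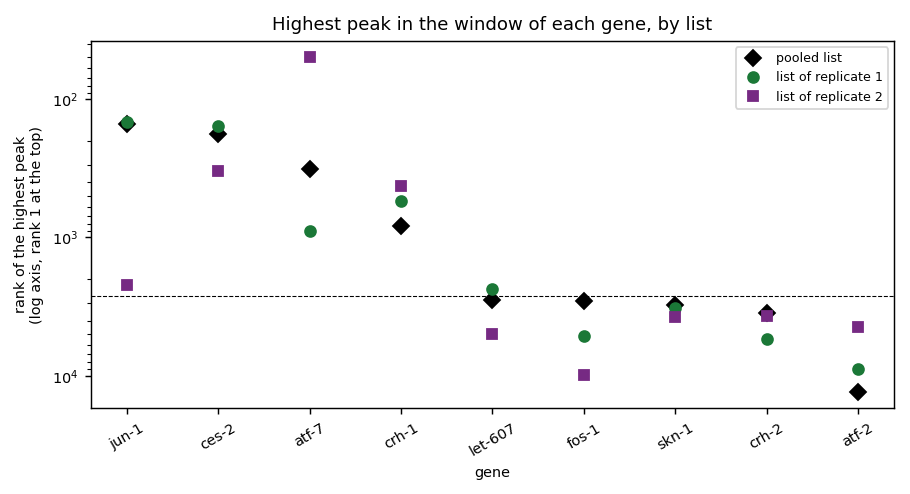
Rank of the highest peak in the window of each gene, on a log axis with rank 1 at the top, in the pooled list (diamonds), replicate 1 (circles) and replicate 2 (squares). The dashed line is the length of the optimal list, 2634; jun-1, ces-2, atf-7 and crh-1 lie above it in all 3 lists, and let-607 in replicate 1 alone.

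Most of the 11 peaks lay inside genes, and most were outside promoters as defined here. That second count depends on the definition: 5 other summits lay between 1213 and 1796 bp upstream of a start of their gene, and with promoters from 2000 bp upstream all 4 genes had a promoter summit. By location, 1 summit was in a promoter, 1 in another exon, 7 in introns and 2 in intergenic sequence, and 6 of the 7 were in an intron of the member itself. Over all nuclear optimal peaks the shares were 31.0% promoter, 15.3% exon, 28.0% intron and 25.7% intergenic. With 11 peaks at 4 genes these shares are counts of few places, and peaks in 1 window share a gene.

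Full bZIP sites were present at 8 of the 11 optimal summits, or 72.7%, where 78.7% of all optimal summits held one. The exact Clopper-Pearson 95% interval, 39.0 to 94.0, covers counting error only and treats the 11 peaks as independent. They lay at only 4 genes, and the 3 without a site were all at ces-2, so the interval understates the uncertainty. Among the 70 weaker pooled peaks in the windows, 5 held a site, where 8.87% of all weaker pooled peaks did, and 1.58% of genome windows of 101 bp did. The CRE was at 3 of the 11 and TGACGTAA at 3, and TTACGTAA and TGACGCAA were at 1 each. The share over all optimal summits was 39.5% for the CRE, 11.8% for TGACGTAA, 16.4% for TTGCGCAA, 3.45% for TTACGTAA, 1.84% for TGATGCAA and 9.46% for TGACGCAA. In genome windows of 101 bp those shares were 0.552%, 0.187%, 0.149%, 0.0892%, 0.428% and 0.189%. The windows held only 1 C/EBP palindrome, TTGCGCAA, at ces-2 (I:14962516-14962523), and no optimal summit lay within 50 bp of it. It was within 100 bp of the ces-2 optimal peak of lowest signal, whose pooled summit was I:14962573. The summit of that peak in replicate 2 was nearer to the palindrome, at I:14962525. The SKN-1 cores ATCAT and GTCAT were at 7 of the 11, but GTCAT overlaps a CRE whose next base is T, and these short cores were at 64.9% of all optimal summits and in 32.8% of genome windows.

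Most full sites in the windows had no strong peak. Of 45 full sites, 8 lay within 50 bp of an optimal summit, where 13.1% of all full sites of the genome did. Any pooled summit lay within 50 bp of 13, where 27.6% of all full sites had one. Of the 18 CREs, 3 were at an optimal summit, where 18.9% of all CREs of the genome were. At a pooled summit there were 7, where 40.7% of all CREs were. All 10 TGATGCAA sites in the windows were without an optimal peak, and over the genome 1.05% of that pattern had one. CREs whose surrounding 24 bases occur once in the genome were at an optimal summit in 23.1% of 4469 cases, and those in stretches with 10 or more copies in 7.63% of 786. In the windows, 13 of the 18 CREs were in single-copy stretches, including the 3 at optimal and all 7 at pooled summits, and the part of copy number in these counts was not tested.

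**Figure D4:**
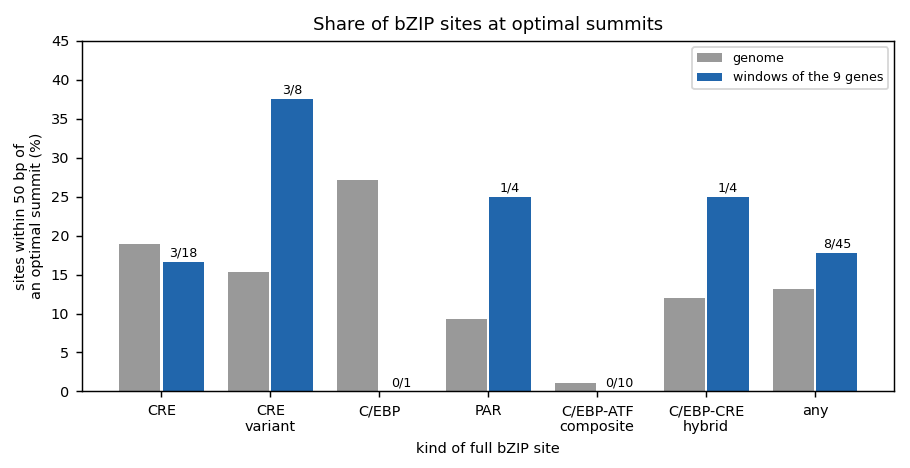
Share of bZIP sites within 50 bp of an optimal summit, in percent, by kind of site, over the genome (grey) and in the windows of the 9 genes (blue), with the counts printed above the blue bars. The bar for any site is 17.8% in the windows, 8 of 45, and 13.1% over the genome.

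Genes that act with these factors were described from 7 lists of 74 genes, of which 73 were matched in the annotation. An optimal summit lay in the window of 29 of the 73, or 39.7%, beside the 19.7% of all protein-coding genes, and window lengths differ between genes. The lists were written with earlier results of these data known and include zip-8 itself. The difference in share is therefore descriptive and was not tested. The same 19.7% stands beside the count of each list. Of 10 genes for cofactors and kinases of CREB, 5 had one, led by the calcineurin B gene cnb-1 (97.9), the CaM kinase II gene unc-43 (82.0), the CaM kinase kinase gene ckk-1 (77.1) and the protein kinase A gene kin-1 (75.2). At unc-43 and ckk-1 the nearest start belonged to another gene. For the p38 pathway and the regulators of SKN-1 the count was 4 of 12, with tir-1, the SARM1 gene upstream of p38, at 159 and mex-1, brap-2 and gsk-3 between 25.1 and 27.9, the brap-2 summit being nearest to the start of ndx-6. Of 8 targets of SKN-1, only the endoderm GATA factor gene end-1 had an optimal peak (24.8). The end-1 and brap-2 peaks were not found in both replicate lists, where 81% of all optimal peaks were.

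The JNK and ERK pathways had 3 of 12 genes with an optimal peak. The JNK kinase gene jkk-1 had a signal of 197 at a summit nearest to the start of F35C8.5, and kgb-1 and dlk-1 had 27.5 and 23.3. Of 6 genes of anchor cell invasion, in which FOS-1 acts, 4 had an optimal peak: the cadherin gene cdh-3 (147), the hemicentin gene him-4 (86.9), the matrix metalloproteinase gene zmp-1 (53.8) and the nuclear receptor gene nhr-67 (26.1). The cdh-3 summit was nearest to the start of another gene, WBGene00022662. The him-4 and nhr-67 peaks were not found in both replicate lists. Of 6 cell-death genes linked to CES-2, 3 had one, and each of the 3 had a promoter summit. Of all protein-coding genes, 19.7% had an optimal summit in the window and 4.35% an optimal promoter summit. The 3 were the CES-2 target ces-1 (105), the BH3-only gene egl-1 (74.7) and the caspase gene ced-3 (52.4). Those signals are the highest in each window and need not be at the promoter summit. The egl-1 summit lay 1380 bp upstream and the ced-3 summit 984 bp upstream of the gene start.

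Other bZIP genes had an optimal peak in 9 of 19 cases. The highest signals were at zip-7 (239), zip-8 (182), zip-5 (51.9) and zip-9 (47.7), and at zip-5 and zip-9 the nearest start was that of a neighbouring gene. The transgene carries zip-8 as well, and its part in the zip-8 signal was not tested.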

How the data were processed

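ChIP-seq of eGFP-ZIP-8 was carried out in 2 replicates of mixed-stage embryos, per the labels. The authors deposited peak lists on ce11, per the file headers and notes: one per replicate, one made from both replicates together, and an optimal list derived from these with the irreproducible discovery rate. Column 7 of these lists was used, the signal that the authors' peak caller assigned. The aligner, the caller, its filters and the rate used as threshold are not named in the labels or notes, and sequencing depth is unknown. The lists on ce10 and the control were not used here.

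Summits were placed on the Ensembl release 115 annotation and the WBcel235 sequence, the same build as ce11, with Python 3.11.15, NumPy 2.4.6 and SciPy 1.17.1. Windows, promoters and full sites are as given above. Exons, introns and intergenic sequence were defined by protein-coding transcripts alone. Overlap meant at least 1 bp. Window, promoter and site calls were tested on simulated peaks, all placed upstream of or close to a gene start. Only TGACGCAA was planted, in sequence of A and T alone, so false site calls were not tested. Replicate overlap, nearest starts and exon or intron location were not simulated. Counts are descriptive, with no set test. Named genes are the 9 members with every optimal peak or their highest pooled peak, the nearest starts, and up to 4 genes of highest signal per list. The members, lists and site definition were chosen with earlier results of these data known.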

Additional observations from a re-analysis of the deposited data

How the results depend on the processing

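The 4 genes with an optimal peak stayed 4 under every window and peak setting tried except without replicate 2, where let-607 made 5; they were 4 without replicate 1. Optimal peaks in the windows numbered 9 and 10 without a replicate, with 6 and 8 of them holding a site, 9 and 9 found in both lists, 32 and 27 pathway genes and 19.4% and 19.8% of all genes. With the 50% of optimal peaks of higher signal there were 6 peaks, all 6 in both lists, 0 members with a promoter summit, 17 pathway genes and 10.6% of all genes. With sites within 25 bp, 5 peaks held one, and with promoters from 2000 bp upstream 4 members had a summit. The 10 optimal peaks found in both replicate lists became 7 with an overlap of at least 50%, and 9 with summits within 100 bp. Windows from 2 kb and 10 kb upstream held optimal peaks at 13.9% and 28.5% of all genes. No paired analysis was possible because the 2 samples form 1 group. Without a replicate the 2634 highest peaks of the other list stood in for the optimal list, which is not the authors' procedure. Depth is unknown, so a gene without an optimal peak is not shown to be unbound.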
